A study of Mus musculus with 2 samples.

Results

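Mitochondrial ribosomal proteins are coded by nuclear genes whose mouse symbols begin with Mrpl (large subunit) or Mrps (small subunit). The members described here were the probe sets annotated to exactly 1 gene with such a symbol, followed by a number and at most 1 letter. There were 156 of them among 45037 probe sets on the array, and they stood for 76 genes, 47 Mrpl and 29 Mrps, of 18194 genes in all. A further 2 genes of the family, Mrpl30 and Mrpl53, were represented only by probe sets shared with another gene and are not among the 76. The mitochondrial ribosome translates the few messages of mitochondrial DNA, all of which code for subunits of the respiratory chain and ATP synthase. Its proteins are made in the cytosol, imported, and assembled on ribosomal RNA that is transcribed inside the organelle. Some of them have a counterpart in the bacterial ribosome and the others are found in mitochondria alone. Brain endothelium is known for a high content of mitochondria.

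The cells were labelled bEnd3, an endothelial line from brain microvessels of BALB/c mice, transformed with the polyoma middle T antigen. One population carried a retrovirus with an siRNA against Smad4, the common partner of the Smads that signal for TGF-β and BMP, and the other a control siRNA virus. Both populations were selected with puromycin, and RNA from 2 infections was pooled for each, so that each group had 1 array and no replicate. No difference below has a replicate check or a test, and how precise a value is cannot be known from a single array per group.

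The labels were checked before the comparison, and several measurements went against them. Smad4 itself was not lower after normalization, with 3 probe sets whose quantile-normalized signals were 722, 817 and 1165 on the array labelled Smad4-siRNA, against 607, 545 and 916 on the Control-siRNA array. The log2 ratios, Smad4-siRNA minus Control-siRNA, were 0.25, 0.58 and 0.35, and those of the deposited values were -0.12, 0.21 and -0.07, so that their sign depends on the scaling. Of 12 endothelial markers, the array labelled Smad4-siRNA had 5 at or over the floor, the median signal of an array (22.8), against 11 for Control-siRNA, with summed signals of 457 for Smad4-siRNA and 20689 for Control-siRNA. Of 11 fibroblast markers, 9 reached it under the label Smad4-siRNA, against 2 under Control-siRNA, with summed signals of 24394 for Smad4-siRNA and 996 for Control-siRNA. Pericyte and smooth muscle markers summed to 3012 for Smad4-siRNA and 91.9 for Control-siRNA, with 4 of 8 at or over the floor for Smad4-siRNA and 2 for Control-siRNA. Vwf, Lum, Thy1, Cnn1, Myh11 and Rgs5 were below the floor on both arrays. Xist, which is transcribed from the inactive X chromosome, had signals of 4476 for Smad4-siRNA and 20.7 for Control-siRNA, and the Y-linked Eif2s3y had signals of 0.349 for Smad4-siRNA and 324 for Control-siRNA. The Y-linked Kdm5d had 4.69 for Smad4-siRNA and 122 for Control-siRNA, and Uty had 4.03 for Smad4-siRNA and 112 for Control-siRNA. Whether both arrays hold RNA of the same cell line was not tested, and a difference between lines cannot be told apart from one between siRNAs. "Higher" and "lower" below therefore state a direction between the arrays and not a response to loss of Smad4, and the part that these cell markers have in any difference was not tested. Fewer cells of a type and less RNA per cell cannot be told apart in such samples.

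Most mitochondrial ribosomal protein genes were lower on the array labelled Smad4-siRNA. By its brightest probe set, each of the 76 reached the floor on both arrays, so that none was left out. Their signals ran from 69.6 to 1699 with a median of 339 under the label Smad4-siRNA, and from 121 to 1656 with a median of 559 on the Control-siRNA array. Summed over the 76 genes, the signals came to 30944 for Smad4-siRNA and 48203 for Control-siRNA. The log2 ratio, Smad4-siRNA minus Control-siRNA, was below 0 for 68 genes and above 0 for 8, whereas 42.9% of the 9479 genes measured on both arrays were above 0. The median over the family was -0.70, and that over all genes was -0.15.

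At least 2-fold lower signals were found for 24 of the 76 genes, beside 15.0% of all genes measured on both arrays, and at least 2-fold higher signals for 0, beside 12.6%. At a fold of 1.5, 44 were lower (28.9% of all genes) and 1 was higher (21.0% of all genes), while 31 lay within that fold (50.1% of all genes). For the values as deposited, 43 were at least 2-fold lower, beside 20.6% of all genes on that scale, with a median of -1.04 for the family and of -0.33 for all genes. Some probe sets carry a suffix letter in their names, as in _a_at, _s_at or _x_at, and the letters were not told apart. Without all suffixed probe sets, 59 of the genes stayed measured, 29 of them were at least 1.5-fold lower, and their median was -0.54. The genes also lay closer together than genes in general, with an SD of 0.60 for the family and of 1.10 for all genes. These SDs were not matched for signal. The family's lowest signal was 69.6 (Smad4-siRNA), whereas all genes were counted from the floor of 22.8 up. The family did not lie closer together than other lists of proteins that form complexes. Their SDs were 0.53 for respiratory subunits and 0.41 for cytosolic ribosomal proteins. The SD between probe sets of 1 gene was 0.41 over 33 of the family's genes and 0.47 over all 4546 genes with several measured probe sets. It mixes technical error with differences between the sequences probed, and holds nothing of the spread between arrays or cultures.

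**Figure D1:**
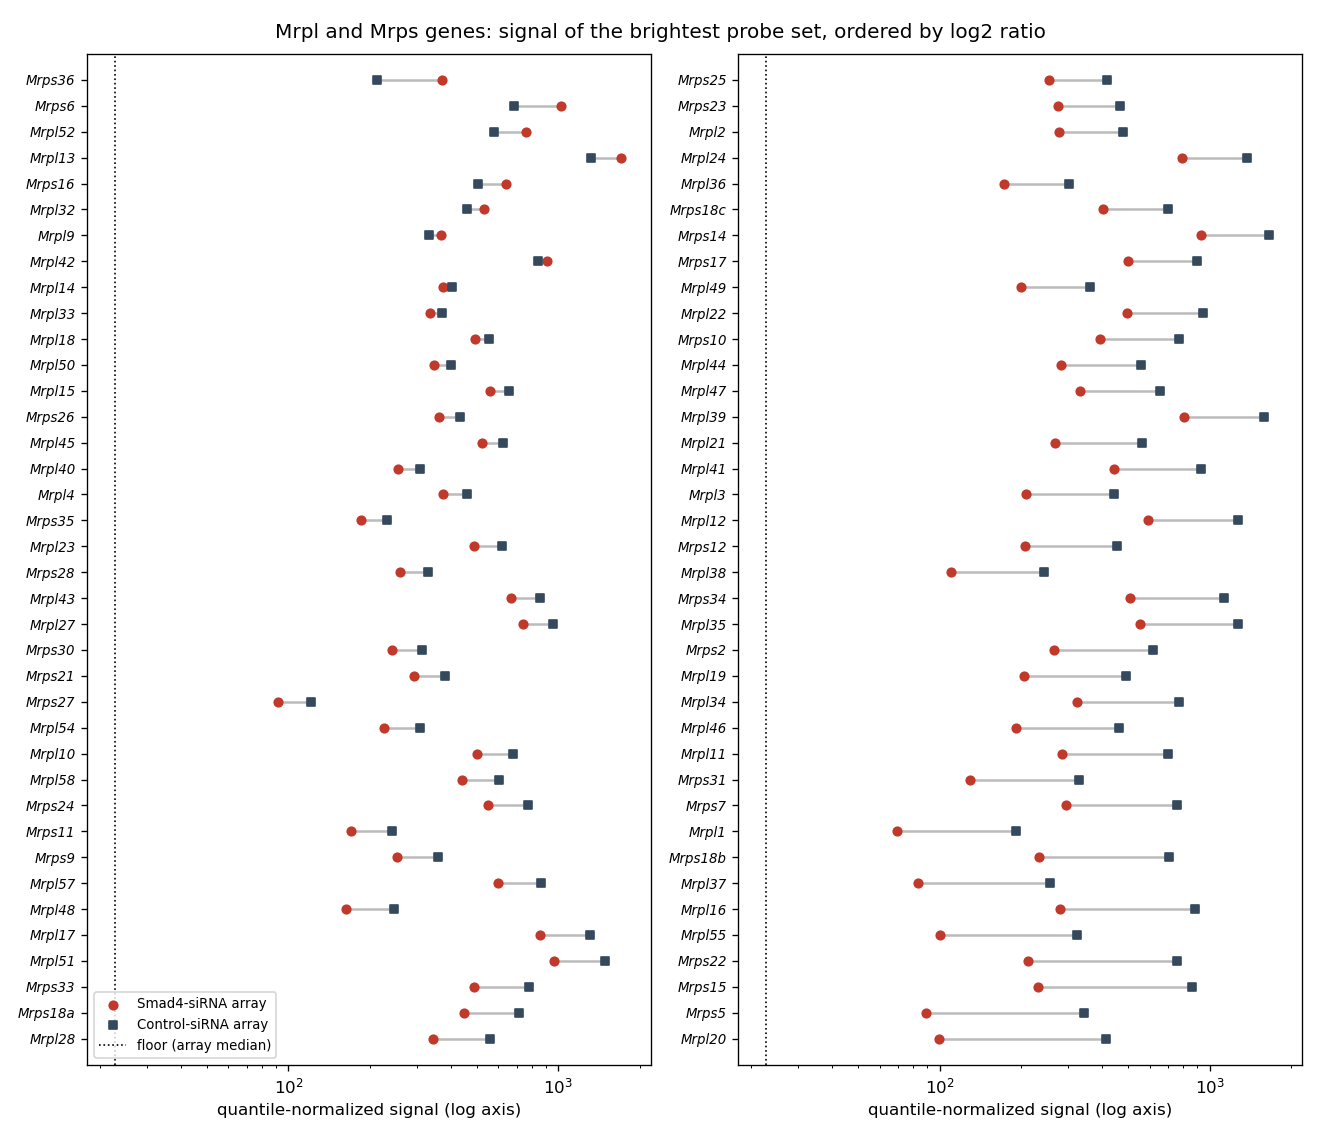
Quantile-normalized signals (log axis) of the brightest probe set of each of the 76 Mrpl and Mrps genes, in order of log2 ratio from highest (top left) to lowest (bottom right). Circles are the array labelled Smad4-siRNA, squares the Control-siRNA array and the dotted line the floor of 22.8. The circle lies left of the square for 68 genes.

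The lowest ratio belonged to Mrpl20, the counterpart of bacterial L20, a protein that binds ribosomal RNA of the large subunit. Its only probe set gave 99.2 for Smad4-siRNA, against 413 for Control-siRNA, which is 4.16-fold lower. Mrps5, counterpart of the small subunit protein S5 at the entrance of the mRNA channel, had signals of 89.4 for Smad4-siRNA and 342 for Control-siRNA and was 3.82-fold lower. Mrps15, whose bacterial counterpart binds the small subunit RNA early in assembly, had signals of 232 for Smad4-siRNA and 858 for Control-siRNA and was 3.70-fold lower. These genes differed most among those of both subunits, and Mrps5 was the one with most probe sets to compare. Of its 5, a dim probe set with signals of 34.6 for Smad4-siRNA and 34.7 for Control-siRNA did not differ between the arrays as the others did.

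Mrps22 is a small subunit protein with no bacterial counterpart, and mutations of the human gene cause a deficiency of oxidative phosphorylation. It had signals of 213 for Smad4-siRNA and 758 for Control-siRNA, 3.55-fold lower. Mrpl55, the counterpart of bacterial L31, had signals of 100.3 for Smad4-siRNA and 323 for Control-siRNA and was 3.22-fold lower. Mrpl16, close to the peptidyl transferase centre, had signals of 278 for Smad4-siRNA and 883 for Control-siRNA and was 3.17-fold lower. Mrpl37, a large subunit protein specific to mitochondria, followed with 83.3 for Smad4-siRNA and 258 for Control-siRNA, 3.09-fold lower. Each of these genes had a single probe set, so its value has no check within the arrays.

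At the other end stood Mrps36, where Smad4-siRNA gave 371, against 214 for Control-siRNA, which is 1.74-fold higher. It bears a ribosomal name, but its product is now known as a part of the oxoglutarate dehydrogenase complex of the citric acid cycle. No other gene of the family was past 1.5-fold higher. Mrps6, counterpart of bacterial S6, had signals of 1020 for Smad4-siRNA and 683 for Control-siRNA and was 1.49-fold higher, and its probe sets had log2 ratios of 0.58 and 0.34. Mrpl52 had signals of 756 for Smad4-siRNA and 577 for Control-siRNA and Mrpl13 of 1699 for Smad4-siRNA and 1318 for Control-siRNA, log2 ratios of 0.39 and 0.37. As deposited, the log2 ratios of Mrps36, Mrps6, Mrpl52 and Mrpl13 were 0.50, 0.18, 0.02 and 0.00.

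The other 4 genes above 0 depended on the scaling. Mrps16, Mrpl32, Mrpl9 and Mrpl42 had log2 ratios of 0.34, 0.20, 0.15 and 0.10. The deposited values gave -0.02, -0.15, -0.18 and -0.30 for them. Mrpl32 is known as a substrate that the m-AAA protease of the inner membrane cleaves before it joins the ribosome. All 8 genes above 0 differed by less than 2-fold, and 7 of them by less than 1.5-fold.

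The medians of the subunits lay close together. The 47 Mrpl genes had a median log2 ratio of -0.69, with 42 below 0 and 15 at least 2-fold lower. The 29 Mrps genes had a median of -0.71, with 26 below 0 and 9 at least 2-fold lower. Mrps18a and Mrps30 are known as parts of the large subunit despite their names, and their log2 ratios of -0.68 and -0.37 lie inside the range of either set. The 45 measured genes listed with a bacterial counterpart had a median of -0.80, and the 30 listed as specific to mitochondria one of -0.65. That order turned round with each gene read as the median of its probe sets, -0.70 and -0.83, so it rests on which probe sets stand for the genes.

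The 3 genes that descend from bacterial S18 were all lower. In the split above, Mrps18c was listed with a bacterial counterpart. Mrps18a and Mrps18b were listed as specific to mitochondria in spite of this descent. The signals of Mrps18b were 235 for Smad4-siRNA and 708 for Control-siRNA, those of Mrps18c 403 for Smad4-siRNA and 704 for Control-siRNA, and those of Mrps18a 446 for Smad4-siRNA and 716 for Control-siRNA. Mrps18b was 3.02-fold lower, Mrps18c 1.75-fold and Mrps18a 1.60-fold. Each was represented by 1 probe set.

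Genes were next grouped by the place of their products. Those of the stalks and their bases, where translation factors and leaving tRNAs bind, were all below 0 in the 5 measured on probe sets of their own, with a median of -1.10. Mrpl1 had signals of 69.6 for Smad4-siRNA and 193 for Control-siRNA, Mrpl11 of 284 for Smad4-siRNA and 703 for Control-siRNA, and Mrpl12 of 593 for Smad4-siRNA and 1269.6 for Control-siRNA, and these were at least 2-fold lower. Mrpl12 is known to bind the mitochondrial RNA polymerase in human cells in addition to its place in the stalk. Mrpl10 and Mrpl54 had a log2 ratio of -0.44 each. Without suffixed probe sets, where Mrpl1 was represented by a probe set with a log2 ratio of -0.30, the median was -0.44.

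The 7 genes along the mRNA path of the small subunit were likewise all below 0, with a median of -0.81. Mrps5, Mrps7 and Mrps12 were at least 2-fold lower, Mrps7 with signals of 295 for Smad4-siRNA and 755 for Control-siRNA and Mrps12, which lies at the decoding centre, with 207 for Smad4-siRNA and 452 for Control-siRNA. Mrps18c, Mrps11, Mrps24 and Mrps21 had log2 ratios of -0.81, -0.50, -0.50 and -0.38. Around the peptidyl transferase centre, Mrpl16, Mrpl3, Mrpl2 and Mrpl27 had log2 ratios of -1.67, -1.09, -0.78 and -0.37.

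The tunnel exit and the central protuberance were the other places listed. None of the 6 tunnel exit genes was at least 2-fold lower, although all were below 0. Mrpl47 (329.9 for Smad4-siRNA and 656 for Control-siRNA) had a log2 ratio of -0.99, Mrpl22 of -0.94, Mrpl24 of -0.80, Mrpl17 of -0.61, Mrpl23 of -0.34, and Mrpl45, which ties the ribosome to the inner membrane, of -0.26. Of the 6 central protuberance genes, where the large subunit meets the small one, 5 were below 0. Mrpl46 (191 for Smad4-siRNA and 461 for Control-siRNA) and Mrpl38 (110 for Smad4-siRNA and 244 for Control-siRNA) were at least 2-fold lower, Mrpl48, Mrpl40 and Mrpl18 had log2 ratios of -0.60, -0.27 and -0.17, and Mrpl52 was above 0. The median of -0.44 was -0.22 without suffixed probe sets, and no difference between places was tested.

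The remaining genes at least 2-fold lower were spread over both subunits. Mrps31 had signals of 129.6 for Smad4-siRNA and 329 for Control-siRNA, Mrpl34 of 322 for Smad4-siRNA and 771 for Control-siRNA, and Mrpl19 of 206 for Smad4-siRNA and 491 for Control-siRNA. Mrps2, counterpart of bacterial S2, had signals of 266 for Smad4-siRNA and 619 for Control-siRNA, Mrpl35 of 551 for Smad4-siRNA and 1269 for Control-siRNA, and Mrps34 of 507 for Smad4-siRNA and 1129 for Control-siRNA. Mutations of human MRPS34 are known to cause Leigh syndrome. Mrpl41 and Mrpl21 had log2 ratios of -1.08 and -1.06. For Mrpl21 that value came from a suffixed probe set, and a dimmer one without a suffix had a log2 ratio of -0.42. Of the 24 genes, 18 were at least 2-fold lower under each of the 4 scalings tried, a count that was not taken over all genes.

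Separate probe sets of a gene mostly pointed the same way. Of 156 probe sets, 128 reached the floor on both arrays, 113 of these had a log2 ratio below 0, and their median was -0.74. The counts by probe set were not taken over the other genes of the arrays. For 33 genes with more than 1 such probe set, all of a gene's probe sets were below 0 in 27 and above 0 in 3, Mrps6, Mrpl52 and Mrpl13. Both signs occurred in 3 genes, Mrpl9, Mrpl15 and Mrps9. Mrps9 had probe sets at -0.51, -0.18, -1.03 and 0.32 on the log2 scale, and Mrpl15 ranged from -0.78 to 0.13 over 6. All these signs are those of quantile-normalized signals. As deposited, a probe set of Mrps6 and another of Mrpl52 lay below 0, at -0.03 and -0.08.

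Probe sets differed by more than 1 on the log2 scale in 6 genes. In Mrps5 they ran from -1.93 to -0.00, in Mrps9 from -1.03 to 0.32, and in Mrpl1 from -1.47 to -0.30. In Mrpl3 they ran from -2.14 to -1.09, in Mrpl38 from -1.30 to -0.16, and in Mrpl11 from -1.84 to -0.84. For 43 genes only 1 probe set was measured on both arrays.

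**Figure D2:**
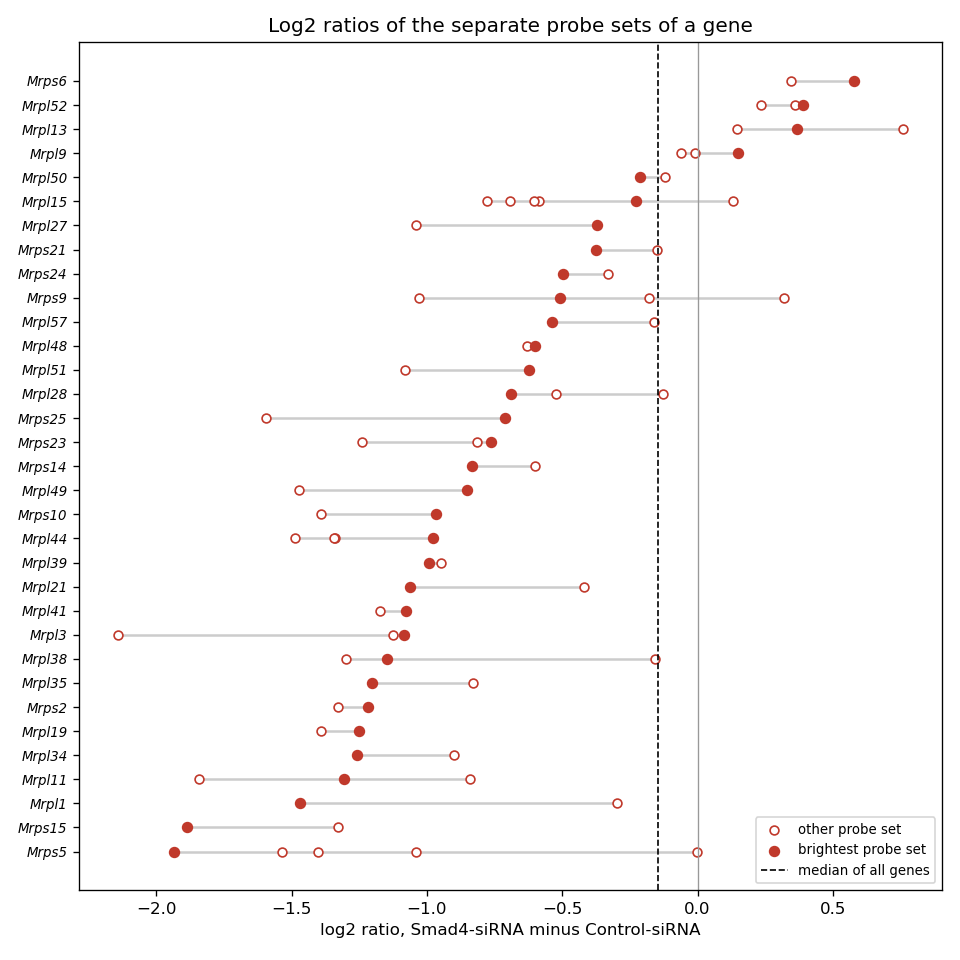
Log2 ratios (Smad4-siRNA minus Control-siRNA) of every probe set that reached the floor on both arrays, for the 33 genes with more than 1. Filled circles are the brightest probe set of a gene, open circles its others, and the dashed line is the median of all genes, -0.15. In 27 genes every circle lies below 0.

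Other proteins of the same ribosome carry names outside the family and were lower too. Chchd1, a small subunit protein, had signals of 491 for Smad4-siRNA and 1041 for Control-siRNA, Ptcd3 of 140.5 for Smad4-siRNA and 271 for Control-siRNA, and Gadd45gip1, a large subunit protein, of 164 for Smad4-siRNA and 316 for Control-siRNA. Dap3, a GTP-binding protein of the small subunit, had 581 for Smad4-siRNA and 944 for Control-siRNA. Their log2 ratios were -1.08, -0.95, -0.95 and -0.70.

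Factors that build the mitochondrial ribosome lay lower as well. Of 22 listed, 21 were measured on both arrays and 18 had a log2 ratio below 0, with a median of -0.81 (-0.43 with the floor at the 75th percentile). Of those measured, 8 (38.1%) were at least 2-fold lower and none was 2-fold higher, beside 15.0% and 12.6% of all genes. The rRNA methyltransferase gene Mrm3 had signals of 51.6 for Smad4-siRNA and 281 for Control-siRNA, 5.44-fold lower, and the GTPase gene Noa1 of 64.4 for Smad4-siRNA and 306 for Control-siRNA, 4.76-fold lower. The highest were Malsu1 and Rbfa, with log2 ratios of 0.54 and 0.29. Ybey was below the floor on both arrays.

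Translation factors of the organelle had a median of -0.82 over 15 genes. Of these, 7 (46.7%) were at least 2-fold lower and none was 2-fold higher, beside 15.0% and 12.6% of all genes. Pdf, which removes the formyl group from new chains, had signals of 88.9 for Smad4-siRNA and 416 for Control-siRNA, 4.68-fold lower. The elongation factor gene Tsfm had 70.1 for Smad4-siRNA and 250 for Control-siRNA, 3.56-fold lower. Oxa1l, which inserts new chains into the inner membrane, and Rmnd1 were highest, with log2 ratios of 0.46 and 0.24. Without suffixed probe sets the median was -0.52.

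Mitochondrial tRNA synthetases lay nearer to genes in general, with a median of -0.35 over 14 genes, 3 of them (21.4%) at least 2-fold lower, beside 15.0% of all genes. That median was -0.03 as deposited and centred, and -0.60 with each gene read as the median of its probe sets. Nars2 (78.2 for Smad4-siRNA and 293 for Control-siRNA) was 3.75-fold and Yars2 (105 for Smad4-siRNA and 352 for Control-siRNA) 3.36-fold lower, whereas Wars2 and Iars2 had log2 ratios of 0.32 and 0.18. Aars2 and Mars2 did not reach the floor for Smad4-siRNA. Against the floor, Aars2 was at least 2.58-fold lower and Mars2 at least 1.05-fold lower.

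Genes for mitochondrial DNA upkeep and for its transcription were listed together with regulators such as Myc, Nrf1, Yy1 and Ppargc1b. This list went both ways, with 6 of 18 (33.3%) at least 2-fold lower, beside 15.0% of all genes. Polg2 alone was past 2-fold higher, and the median was -0.43. Myc, a transcription factor that promotes growth, had signals of 228 for Smad4-siRNA and 736 for Control-siRNA, 3.23-fold lower, and the protease gene Lonp1 of 147 for Smad4-siRNA and 458 for Control-siRNA, 3.12-fold lower. Polg2, a subunit of the mitochondrial DNA polymerase, had 133 for Smad4-siRNA and 55.2 for Control-siRNA, 2.41-fold higher, and the coactivator gene Ppargc1b a log2 ratio of 0.88. Ppargc1a was below the floor on both arrays. The median was -0.27 without suffixed probe sets and -0.82 with each gene read as the median of its probe sets.

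Respiratory subunits coded in the nucleus, the partners of the proteins that the mitochondrial ribosome makes, had a median of -0.28 over the 74 of 81 genes that were measured on both arrays. Of these, 7 (9.46%) were at least 2-fold lower and 2 (2.70%) at least 2-fold higher, beside 15.0% and 12.6% of all genes. Ndufb1 (50.7 for Smad4-siRNA and 135 for Control-siRNA) and Ndufs7 (668 for Smad4-siRNA and 1470 for Control-siRNA) had the lowest log2 ratios, -1.41 and -1.14, and Ndufa4 (2051 for Smad4-siRNA and 619 for Control-siRNA) and Ndufv3 (2589 for Smad4-siRNA and 1182 for Control-siRNA) the highest, 1.73 and 1.13. Cox6b2 gave 198 for Smad4-siRNA and 4.69, below the floor, for Control-siRNA, and was at least 8.70-fold higher. As deposited the median was -0.54.

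Proteins of the cytosolic ribosome had a median of -0.06 over the 43 of 47 genes that were measured on both arrays (the other 4 were below the floor on both). Of these, 3 (6.98%) were at least 2-fold lower and none was 2-fold higher, beside 15.0% and 12.6% of all genes. Rpl12 and Rps6 had the lowest log2 ratios, -1.52 and -1.35, and Rpl37 and Rpl11 the highest, 0.42 and 0.28. Their median changed sign with the scaling, 0.17 as deposited and centred and 0.02 with the lowess trend removed, and was -0.33 without suffixed probe sets. No difference between the cytosolic and mitochondrial lists could be tested with 1 array per group. Genes of the cell cycle had the opposite sign, with a median of 1.43 over 21 genes (0.17 with the floor at the 75th percentile). Among the 21, 16 (76.2%) were at least 2-fold higher, beside 12.6% of all genes, and none was 2-fold lower. Top2a had signals of 845 for Smad4-siRNA and 112 for Control-siRNA, Mki67 of 475 for Smad4-siRNA and 80.1 for Control-siRNA, and the lowest were Mcm3 and Pcna, with log2 ratios of -0.72 and -0.25.

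**Figure D3:**
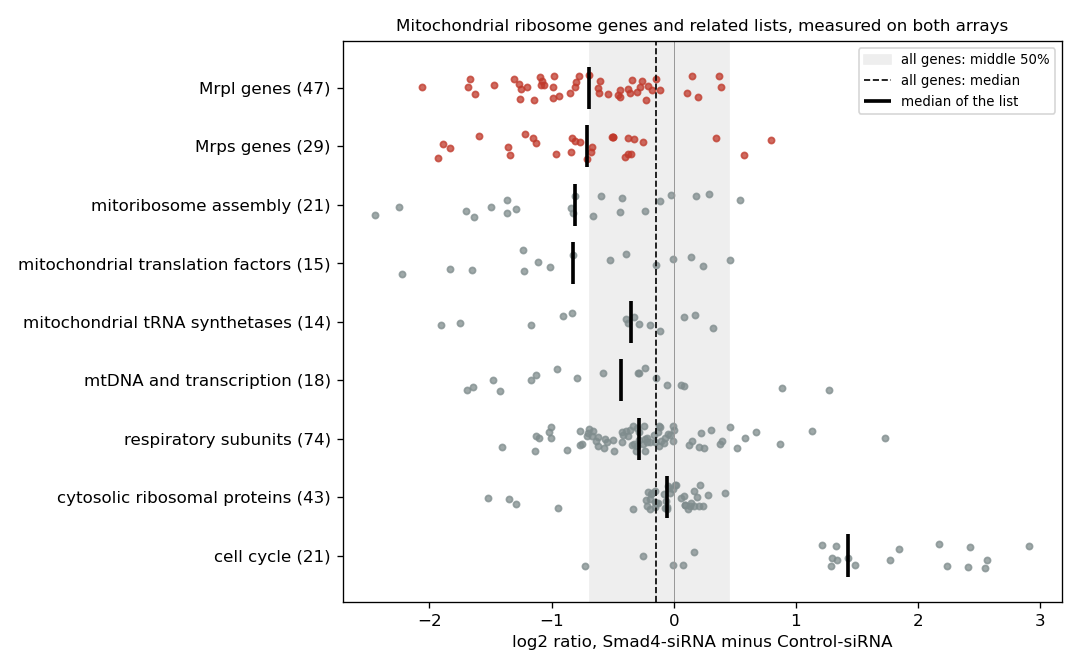
Log2 ratios (Smad4-siRNA minus Control-siRNA) of single genes measured on both arrays, with the number of genes in brackets. Each point is a gene by its brightest probe set, thick bars are list medians, the dashed line is the median of all genes (-0.15) and the grey band their middle 50%. The Mrpl and Mrps medians of -0.69 and -0.71 lie below that line, the cytosolic ribosomal protein median of -0.06, whose sign depends on the scaling, above it and the cell cycle median at 1.43.

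Position in the genome was compared next, since 3 of the lowest ratios, those of Mrpl20, Mrps15 and Mrpl37, belonged to chromosome 4 (order of genes from the RefSeq annotation of GRCm38.p6). For each gene the median log2 ratio was taken over the 10 nearest other genes on each side that were measured on both arrays (fewer at a chromosome end, in 4 of the 76). The neighbours' medians ran from -0.86 to 0.67, with a middle value of -0.14, and 58 of the 76 genes lay below their own. The median distance from the neighbours was -0.66, and 18 genes were at least 2-fold lower relative to them. Other genes were not set against their neighbours in this way, so no share over all genes stands beside these counts.

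On chromosome 4 the neighbours were low too. Those of Mrps15 had a median of -0.86, those of Mrpl37 of -0.66 and those of Mrpl20 of -0.52, whereas those of Mrpl50, with a log2 ratio of -0.21 itself, had 0.42. Without the 4 genes of that chromosome, 21 of 72 were at least 2-fold lower and the median was -0.69. Mrps5, on chromosome 2, stood farthest from its neighbours, with a log2 ratio of -1.93 against a median of 0.07. Mrps36 and Mrps6 were farthest above, by 0.60 and 0.59. Across the 76 genes the ratio and the neighbours' median had a Pearson correlation of 0.25 and a Spearman correlation of 0.22, which describe genes on the same arrays that are not independent.

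**Figure D4:**
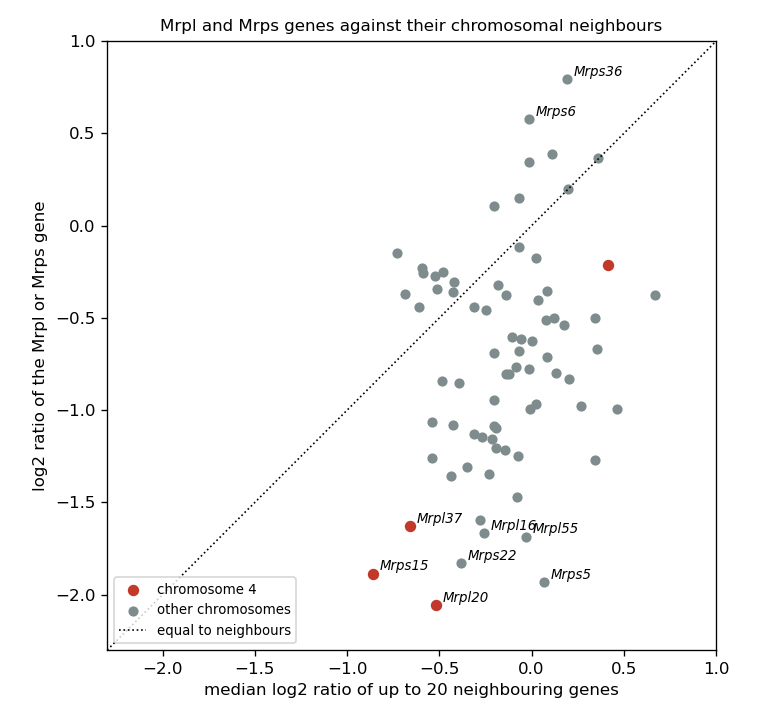
Log2 ratio of each Mrpl or Mrps gene (vertical) against the median log2 ratio of up to 20 measured neighbours (horizontal), both Smad4-siRNA minus Control-siRNA. The dotted line marks equality, and 58 of 76 points lie below it. The 4 genes of chromosome 4 are in red, 3 of them with neighbours between -0.86 and -0.52.

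Promoters of the family were read because its members lay low together. RefSeq sequences of GRCm38.p6, 250 bases before to 50 after the start, were at hand for 67 of the 76 genes (73 windows). Motifs were searched on both strands as CCGGAAG for ETS factors, AAGATGGC for YY1, the NRF1 palindrome with its middle letter free, and CACGTG for the E-box that Myc and USF bind. ETS factors, of which the GA-binding protein is one, NRF1 and YY1 are known regulators of nuclear genes for mitochondria. CCGGAAG stood in 34.2% of the family's windows, in 19.2% of the 9890 windows of other genes measured on both arrays and in 8.86% of all 32851 windows. For AAGATGGC the shares were 16.4%, 4.76% and 2.75%. For the NRF1 motif they were 16.4%, 11.2% and 4.60%, and for CACGTG 9.59%, 10.5% and 7.15%. The family's 7 windows with CACGTG came from 5 genes, because Mrpl2 has 3 overlapping windows.

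A match is a description of letters and not of binding. ETS and YY1 letters stood together in 3 windows, those of Mrps12 (chr7:28741772-28742071, minus strand), Mrps18a (chr17:46110754-46111053, plus strand) and Mrps27 (chr13:99344536-99344835, plus strand), and overlapped in 0. These windows are shown because they hold the letters of both ETS factors and YY1, and capitals mark the matches, read 5′ to 3′.
Mrps12: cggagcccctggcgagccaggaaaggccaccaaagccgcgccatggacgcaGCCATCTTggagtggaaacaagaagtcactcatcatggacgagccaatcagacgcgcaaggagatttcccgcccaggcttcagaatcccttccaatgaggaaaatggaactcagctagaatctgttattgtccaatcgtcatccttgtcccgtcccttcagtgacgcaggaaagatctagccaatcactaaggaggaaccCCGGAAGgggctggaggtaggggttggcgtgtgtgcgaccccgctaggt
Mrps18a: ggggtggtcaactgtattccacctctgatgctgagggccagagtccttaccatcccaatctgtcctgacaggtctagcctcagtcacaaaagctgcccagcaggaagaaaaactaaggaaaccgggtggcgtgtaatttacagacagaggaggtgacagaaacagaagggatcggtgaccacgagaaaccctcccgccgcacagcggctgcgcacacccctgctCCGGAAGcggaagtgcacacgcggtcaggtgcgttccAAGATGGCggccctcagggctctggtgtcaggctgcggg
Mrps27: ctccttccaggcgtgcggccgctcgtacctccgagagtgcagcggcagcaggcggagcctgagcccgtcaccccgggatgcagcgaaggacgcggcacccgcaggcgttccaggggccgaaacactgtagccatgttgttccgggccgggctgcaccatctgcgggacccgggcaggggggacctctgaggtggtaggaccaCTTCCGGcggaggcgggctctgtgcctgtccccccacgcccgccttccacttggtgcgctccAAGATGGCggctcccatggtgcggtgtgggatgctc
The 3 genes had log2 ratios of -1.13, -0.68 and -0.40. In all, the 25 genes with CCGGAAG had a median log2 ratio of -0.61 and the 42 without it one of -0.84. For AAGATGGC the medians were -0.74 with (12 genes) and -0.76 without (55 genes), and for the NRF1 motif -0.44 (12 genes) and -0.80 (55 genes). For CACGTG the order was the other way, -0.81 with (5 genes) and -0.69 without (62 genes).

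Mrpl46 and Mrps11 are neighbours on opposite strands of chromosome 7, and their windows share 141 bases. Mrpl46 (chr7:78783040-78783339, minus strand) held none of the letters searched and Mrps11 (chr7:78782881-78783180, plus strand) held a YY1 match, in capitals. They are shown as genes of both subunits whose start regions overlap.
Mrpl46: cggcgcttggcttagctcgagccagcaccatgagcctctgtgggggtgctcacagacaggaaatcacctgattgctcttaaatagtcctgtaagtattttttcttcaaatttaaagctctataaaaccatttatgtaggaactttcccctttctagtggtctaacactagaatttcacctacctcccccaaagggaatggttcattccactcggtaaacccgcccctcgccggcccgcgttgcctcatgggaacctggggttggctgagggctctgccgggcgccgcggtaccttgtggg
Mrps11: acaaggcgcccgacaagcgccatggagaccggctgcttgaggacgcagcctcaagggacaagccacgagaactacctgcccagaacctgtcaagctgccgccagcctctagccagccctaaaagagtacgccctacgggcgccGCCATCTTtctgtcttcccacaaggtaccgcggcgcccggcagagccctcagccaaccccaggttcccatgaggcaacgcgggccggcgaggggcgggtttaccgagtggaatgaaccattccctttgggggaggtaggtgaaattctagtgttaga
Both genes were lower. Mrpl46 gave 191 for Smad4-siRNA, against 461 for Control-siRNA, a log2 ratio of -1.27. Mrps11 had 171 for Smad4-siRNA and 242 for Control-siRNA, log2 ratio -0.50. Each value rests on 1 measured probe set.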

How the data were processed

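For 1 Affymetrix array per group, the authors deposited linear probe set intensity values, from MAS5 according to the submitters' processing notes. Which version and target value were used is not stated in the sources at hand. Of 45101 probe sets, 64 controls were left out. Names came from the platform annotation, updated by Entrez identifier against RefSeq for GRCm38.p6: 34945 probe sets had 1 gene, 932 several and 9160 none. Because the 2% trimmed means of 114 (Smad4-siRNA) and 138 (Control-siRNA) differed by more than the 5% allowed, log2 signals were quantile normalized. A gene was read from its brightest probe set (mean log2 signal over the arrays) and counted as measured with both signals at or above the array median (22.8). With 1 signal below it, the fold is against that floor. Computation used Python 3.11.15, pandas 2.3.3 and statsmodels 0.14.6. The gene comparison was run on simulated data with shifts planted in bright genes, which checks the arithmetic and not these arrays.

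The members and lists were chosen with earlier results of these data known. Named were genes past 2-fold, the 8 highest and 8 lowest, those whose probe sets differed by over 1, those grouped by place, the Mrps18 genes, and the 2 highest and lowest of each related list. Eif2s3y, Kdm5d, Uty, Xist, Cox6b2, Ppargc1a, Aars2, Mars2, Ybey, Mrpl15, Mrps30 and the genes of the position and promoter paragraphs were added after their values were seen. The alternatives were other scalings (as deposited, centred on the median, a lowess trend with fraction 0.3 removed), floors at the 25th and 75th percentile, a pseudocount, the median over probe sets, and leaving out suffixed probe sets.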

Additional observations from a re-analysis of the deposited data

How the results depend on the processing

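Over the 9 settings, 67 of the 76 genes were below 0 and 4 (Mrpl13, Mrpl52, Mrps36 and Mrps6) above 0 in every setting that measured them. These counts were not taken over all genes, whose own median was -0.15, and -0.33 as deposited. The family's median of -0.70 was -1.04 as deposited, -0.56 with the lowess trend removed and -0.54 without suffixed probe sets. Its distance from the median of all genes, -0.56, was -0.72 as deposited, also after centring, and -0.39 without suffixed probe sets. The count at least 2-fold lower was 43 as deposited, against 24, while the share of all genes was 20.6% as deposited, against 15.0%. The count at least 1.5-fold lower was 29 without suffixed probe sets, against 44, where 59 genes were left. The 1 gene at least 1.5-fold higher became 0 as deposited, 2 with the lowess trend removed and 3 relative to neighbouring genes, an alternative chosen after seeing the data, as was leaving out chromosome 4. The cause was not tested, beyond the fewer genes left without suffixed probe sets. At least 2-fold higher genes numbered 0 in all settings. No replicate could be left out and no paired analysis was possible because each group had 1 array. Signal over background limits low probe sets: 28 of the 156 were below the floor on at least 1 array.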

Other observations

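Other families, chosen by symbol after the values of the ribosomal genes were seen, are given as values. Beside them, 42.9% of all genes measured on both arrays were above 0, 15.0% at least 2-fold lower and 12.6% at least 2-fold higher. Genes for protein import into mitochondria (Timm and Tomm) had a median log2 ratio of -0.89 over 21 measured on both arrays, with 20 below 0, 9 at least 2-fold lower and none 2-fold higher. Timm10, a chaperone of the space between the membranes, gave 226 for Smad4-siRNA, against 1031 for Control-siRNA, which is 4.57-fold lower, and Tomm40, the channel of the outer membrane, had 217 for Smad4-siRNA and 807 for Control-siRNA, 3.71-fold lower. All 8 assembly factors of respiratory complex I named Ndufaf were below 0, with a median of -1.06 and 4 at least 2-fold lower, led by Ndufaf4 with signals of 178 for Smad4-siRNA and 697 for Control-siRNA. Subunits of the nuclear RNA polymerases (Polr) had a median of -0.75 over 23 genes, with 22 below 0 and 7 at least 2-fold lower. The mitochondrial carriers (Slc25) did not lie low, with a median of -0.03 over 33 genes, 17 below 0, 4 at least 2-fold higher and 3 lower. Proteasome subunits (Psm) had a median of -0.36 over 37 genes, and subunits of the initiation factor eIF3 (Eif3) one of -0.25 over 11. Genes with Cop or Sec symbols had a median of 0.38 over 25 genes, and not all of them code for vesicle coats (Sec61b, Sec62 and Sec63 do not). Peroxisome genes (Pex) lay on the same side, with a median of 0.39 over 13 genes, 3 at least 2-fold higher and 1 lower. Pex5, the receptor that carries enzymes into peroxisomes, had signals of 342 for Smad4-siRNA and 104 for Control-siRNA, 3.29-fold higher.

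Probe sets shared between a ribosomal gene of the mitochondria and another gene cannot be assigned to either. The one shared by Mrpl53 and Ccdc142 gave 358 for Smad4-siRNA, against 802 for Control-siRNA, log2 ratio -1.16. That shared by Mrps34 and Nme3 had 44.7 for Smad4-siRNA and 123 for Control-siRNA, log2 ratio -1.46. Of the pair shared by Mrpl30 and Gm6238, one had 1397 for Smad4-siRNA and 1956 for Control-siRNA, log2 ratio -0.49, and the other was below the floor on both arrays.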
